A study of Mus musculus with 24 samples.

Results

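The high-affinity IgE receptor and the low-affinity IgG receptors were followed through the RNA of their chains, Fcer1a, Ms4a2, Fcer1g, Fcgr2b and Fcgr3. These 5 genes were chosen by symbol from the 15737 genes of the deposited table, and all 5 passed the filter on low counts that left 12936 genes. The cells were basophils grown from the bone marrow of wild-type (WT) mice and of mice lacking tristetraprolin (TTP-KO, written KO here), an RNA-binding protein encoded by Zfp36. All groups shared culture in IL-3, loading with IgE specific for the hapten TNP at 1 µg/mL, enrichment of CD49b+ cells with magnetic beads, and the uridine analogue 4-thiouridine (s4U) at 150 µM. All groups were also given the antigen, ovalbumin carrying TNP (10 ng/mL), over 1.5 h, and after a wash the cells were kept without antigen and s4U for 0, 1, 2 or 4 h. The 2 genotypes and 4 times made 8 groups of 3 libraries, 24 in all. Every group, 0 h included, had met antigen, so a change from 0 h is a change after the antigen was removed and not one from resting cells. The labels state neither the age of the mice, nor the kind of Zfp36 deletion, nor if separate animals or cultures gave the libraries of 1 group, and p-values therefore measure only the spread among libraries, part or all of which may be technical.

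The IgE receptor of basophils is built from an alpha chain that binds IgE, a beta chain that amplifies the signal and stabilises the complex, and a pair of gamma chains that carry the activating motifs (ITAMs). The gamma chain is shared with other receptors, among them the activating IgG receptor Fcgr3, while Fcgr2b carries an inhibitory motif (ITIM) and dampens IgE signals when both receptors are brought together. Tristetraprolin binds AU-rich elements in the 3' untranslated region (UTR) of messenger RNAs and speeds their decay, with UAUUUAU as its core motif.

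Libraries held 8839195 to 25372846 rounded reads on 10539 to 11866 genes with reads, and the smallest were the KO libraries B and C at 4 h. Levels are given as TMM-scaled CPM (counts scaled to a common library total, with factors for composition), as mean ± SD. The kit primes at the poly(A) tail and yields about 1 tag for each transcript, so CPM was compared between genes without division by length. The basophil genes Mcpt8 and Prss34 had mean levels of 13665 and 9693 CPM, and all 11 basophil markers were above 1 CPM. Mcpt1 and Mcpt4, 2 of the 8 mast cell markers measured, had a mean under 1 CPM, while Slc18a2, Tpsb2 and Cma1 had means of 285, 119.6 and 43 CPM. Ncr1, Klrb1c, Klre1 and Prf1, 4 of the 8 NK cell markers measured, had a mean under 1 CPM, while Gzmb and Nkg7 had means of 664 and 87.2 CPM. The 10 neutrophil markers, led by S100a9 and S100a8 with means of 1653 and 1304 CPM, summed to 2433 to 4831 CPM in single libraries. All 18 markers of monocytes and macrophages were detected, and their summed level was higher in KO at every time, at 1377 to 2497 CPM in single KO libraries against 713 to 1183 CPM in WT libraries. Of these 18 markers, 9, 7, 8 and 7 were called higher in KO at 0, 1, 2 and 4 h and 0 lower, beside 0.526%, 0.502%, 0.518% and 1.82% of all genes called in either direction. Zfp36 itself stood at 58.4 to 269 CPM in WT libraries and at 22.4 to 210 CPM in KO libraries. As the position of its tags against the deleted part is not known here, these levels do not check the labels.

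None of the 5 chains holds the core motif in its 3' UTR. The longest 3' UTR annotated in GENCODE M21 (build GRCm38) was searched on the sense strand for TATTTAT, TTATTTATT and the shorter pentamer ATTTA, which lies inside the other motifs. TATTTAT and TTATTTATT were found 0 times in Fcer1a, Ms4a2, Fcer1g, Fcgr2b and Fcgr3, whereas 30.7% of the 12738 tested genes with an annotated 3' UTR hold TATTTAT. Among genes with a 3' UTR within 25% of its length the share with TATTTAT was 6.19% for Fcer1a (206 bases), 9.06% for Fcer1g (342 bases), 13.4% for Fcgr3 (493 bases), 38.7% for Ms4a2 (1950 bases) and 43.4% for Fcgr2b (2397 bases). ATTTA, present in 70.4% of the tested genes, occurred 3 times in Ms4a2 and 2 times in Fcgr2b and was not found in Fcer1a, Fcer1g or Fcgr3. These sites are shown with 10 bases on each side, with ATTTA in capitals, beside a site of the cytokine gene Il4, whose 3' UTR of 104 bases holds TATTTAT 2 times; the first is in capitals and the second lies in lower case in the same window.
Ms4a2 UTR site 1: taccctgagaATTTAactaacctta
Ms4a2 UTR site 2: ggctcgcctcATTTAcatccgtctc
Ms4a2 UTR site 3: aatcagagttATTTAacttgatatt
Fcgr2b UTR site 1: ccatctttctATTTActttttcaag
Fcgr2b UTR site 2: tcaggcagctATTTAagcttgctgt
Il4 UTR site: ttatttttaaTATTTATatatttataa
A match is a description of the letters in these windows, and no match says only that the letters are not there.

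Fcer1a, Fcer1g, Fcgr2b and Fcgr3 lie on chromosome 1 and Ms4a2 on chromosome 19. Promoter windows of 300 bases, from 250 before to 50 after the start, were taken from RefSeq (GRCm38.p6), where all 5 symbols matched. The letters AGATAA, a motif of the GATA family of transcription factors, one of which is needed for basophils, were searched on both strands, where the other strand reads TTATCT. The windows of Fcer1a and Ms4a2, the alpha and beta chains of the IgE receptor, held the motif 1 and 3 times, at -92 from the start for Fcer1a and at -224, -37 and -11 for Ms4a2. The windows of Fcer1g, Fcgr2b and Fcgr3 held none, and 11.2% of the 32851 windows in the table held it. The windows that held the motif are shown on the strand of the gene, with the motif in capitals. Whether the motif bears on the level of either RNA was not tested.
Fcer1a promoter, chr1:173227180-173227479, minus strand: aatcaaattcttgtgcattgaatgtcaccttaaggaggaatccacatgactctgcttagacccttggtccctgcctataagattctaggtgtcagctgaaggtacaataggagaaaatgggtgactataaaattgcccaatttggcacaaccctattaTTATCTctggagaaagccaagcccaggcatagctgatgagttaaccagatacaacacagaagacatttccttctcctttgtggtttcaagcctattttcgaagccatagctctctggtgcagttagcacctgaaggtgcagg
Ms4a2 promoter, chr19:11623670-11623969, minus strand: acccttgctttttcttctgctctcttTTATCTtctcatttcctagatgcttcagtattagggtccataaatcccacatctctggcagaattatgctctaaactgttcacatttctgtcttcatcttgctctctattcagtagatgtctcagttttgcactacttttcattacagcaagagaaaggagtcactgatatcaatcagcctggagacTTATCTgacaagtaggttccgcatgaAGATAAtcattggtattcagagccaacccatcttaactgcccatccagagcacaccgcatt

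After antigen was removed, the 5 chains followed different courses. Fcer1a fell in both genotypes, to 24.2% of its mean level at 0 h in WT and 20.5% in KO by 4 h. Ms4a2 fell at 1 and 2 h and stood at 128% and 115% of its mean at 0 h by 4 h, and Fcer1g fell to 70.1% and 71.7%. Fcgr3 rose at 4 h in KO, and Fcgr2b did not pass the test at any time. The test was edgeR's quasi-likelihood test, and a call is an adjusted p (Benjamini-Hochberg, over all 12936 genes) under 0.05. All comparisons with 0 h in 1 genotype share the same 3 libraries at 0 h. Where groups are said to overlap or not, this only describes 3 libraries against 3. The share of all genes whose groups do not overlap was not counted.

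**Figure D1:**
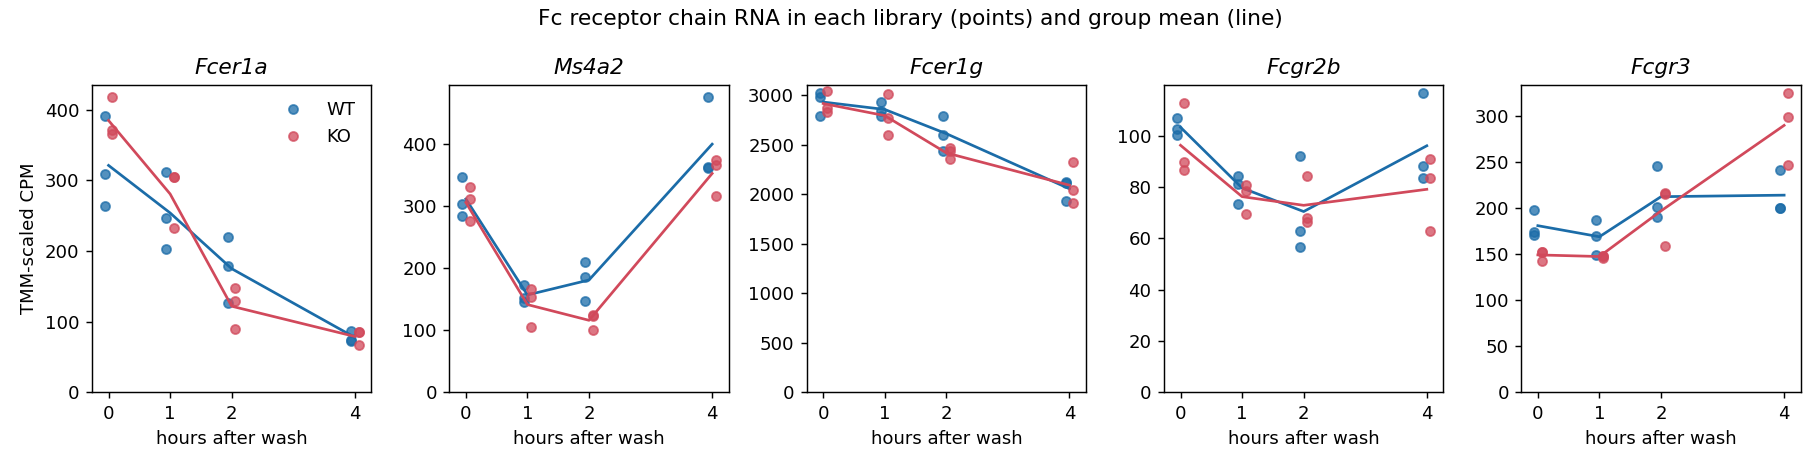
TMM-scaled CPM (vertical axis, from 0) of each chain against hours after the wash, with 1 point for each of the 24 libraries and a line through the group means (WT blue, KO red). Fcer1a declines to 67.4 to 86.4 CPM at 4 h in all 6 libraries, Ms4a2 dips and returns, and the 3 KO libraries at 4 h hold the highest Fcgr3 levels.

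Fcer1a encodes the alpha chain, the subunit that binds IgE. In the WT libraries A, B and C it stood at 309.5, 263 and 391 CPM at 0 h, at 246, 312 and 203 CPM at 1 h, at 219.9, 126 and 178.5 CPM at 2 h and at 72.7, 73.7 and 86.4 CPM at 4 h. The WT libraries at 2 and 4 h lay below all those at 0 h, while those at 1 h overlapped them. In the KO libraries it stood at 366, 371 and 418 CPM at 0 h, at 305, 305 and 232 CPM at 1 h, at 88.9, 129 and 148 CPM at 2 h and at 84.8, 67.4 and 84.6 CPM at 4 h. All KO libraries after 0 h lay below those at 0 h. The log2 change from 0 h was -0.34 ± 0.18 (SE) in WT and -0.45 ± 0.18 in KO at 1 h, which did not pass the test (adjusted p = 0.43 and 0.233). At 2 h Fcer1a fell, by a log2 change of -0.88 ± 0.18 in WT (adjusted p = 0.000456) and -1.66 ± 0.18 in KO (adjusted p = 1.62e-09). At 4 h the fall was -2.05 ± 0.19 in WT (adjusted p = 1.99e-12) and -2.28 ± 0.19 in KO (adjusted p = 7.73e-14). The summed level of the 11 basophil markers, 2 of which are Fcer1a and Ms4a2, was 45980 to 47580 CPM at 0 h and 30176 to 33000 CPM at 4 h in single WT libraries, and 45837 to 46978 CPM and 32606 to 33740 CPM in KO libraries. Over all 24 libraries the cytokine gene Il4, another of the 11, ranged from 355 to 6718 CPM, Hdc from 6158 to 14044 CPM and Prss34 from 6344 to 12503 CPM. Mcpt8, the highest of the 11 by mean, ranged from 11810 to 15114 CPM, so the sum does not describe each marker. Of the 11 markers 6 fell by 4 h in each genotype, Fcer1a itself among them, and 0 rose. Over all 12936 genes 16.7% were called in WT, 1290 of them lower, and 18.1% in KO, 1372 of them lower. The median log2 change of the 11 markers was -0.319 in WT and -0.263 in KO, beside 0.0591 and 0.0843 over all genes. Of the 10 neutrophil markers 8 fell by 4 h in WT and 5 in KO, with a median of -1.55 and -1.64, and their sum went from 4413 to 4831 CPM at 0 h to 2433 to 2698 CPM at 4 h in WT libraries and from 3817 to 4103 to 3337 to 3511 CPM in KO libraries. The part of either list in the fall of Fcer1a was not tested. In bulk libraries a change in the number of cells of a type and a change in RNA per cell cannot be told apart.

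Ms4a2 encodes the beta chain, which amplifies signalling by the receptor. In the WT libraries A, B and C it stood at 303, 284 and 346 CPM at 0 h, at 145, 173 and 152 CPM at 1 h, at 209.7, 147 and 186 CPM at 2 h and at 476, 362 and 360.4 CPM at 4 h. The groups at 1 and 2 h lay below that at 0 h, and all 3 libraries at 4 h lay above it. In the KO libraries it stood at 275, 330.4 and 311 CPM at 0 h, at 153, 105 and 166 CPM at 1 h, at 123, 124 and 101 CPM at 2 h and at 316, 367 and 374 CPM at 4 h. Here too the groups at 1 and 2 h lay below that at 0 h, and the group at 4 h overlapped it. At 1 h Ms4a2 fell, by a log2 change of -0.99 ± 0.16 in WT (adjusted p = 2.16e-05) and -1.11 ± 0.16 in KO (adjusted p = 2.09e-06). At 2 h the fall was -0.78 ± 0.15 in WT (adjusted p = 0.000259) and -1.40 ± 0.16 in KO (adjusted p = 2.26e-09). At 4 h the log2 change from 0 h was 0.36 ± 0.15 in WT and 0.21 ± 0.15 in KO, and neither passed (adjusted p = 0.109 and 0.388). From 2 to 4 h, a comparison added after the data were seen, Ms4a2 rose by 1.14 ± 0.16 in WT (adjusted p = 5.57e-07) and by 1.60 ± 0.16 in KO (adjusted p = 8.5e-11).

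Fcer1g encodes the gamma chain, which carries the ITAM of the IgE receptor and of other receptors. It had the highest level of the chains in all 24 libraries. Its level in WT was 2932 ± 124 CPM at 0 h, 2857 ± 74.3 CPM at 1 h, 2612 ± 177 CPM at 2 h and 2056 ± 109 CPM at 4 h (SD, n = 3). In KO it was 2917 ± 115 CPM at 0 h, 2795 ± 207 CPM at 1 h, 2418 ± 59.3 CPM at 2 h and 2092 ± 211 CPM at 4 h. The libraries at 4 h, at 1912 to 2324 CPM, lay below every library at 0 h, at 2791 to 3048 CPM. At 4 h Fcer1g fell, by a log2 change of -0.51 ± 0.09 in WT (adjusted p = 1.04e-05) and -0.48 ± 0.09 in KO (adjusted p = 2.87e-05). At 2 h the fall in KO was -0.27 ± 0.09 (adjusted p = 0.0352), a call that was lost whichever of the 6 libraries compared was left out (adjusted p = 0.0692 to 0.18), while the change in WT was -0.17 ± 0.09 (adjusted p = 0.265), and 0.09 with scaling by library size only (adjusted p = 0.607). With scaling by library size only the changes at 4 h were -0.19 in WT and -0.11 in KO (adjusted p = 0.131 and 0.405), against a median over all genes of 0.38 and 0.45 under that scaling.

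Fcgr3 encodes the activating low-affinity IgG receptor, which signals through the gamma chain. In the WT libraries A, B and C it stood at 171, 198 and 174 CPM at 0 h, at 188, 149 and 170.2 CPM at 1 h, at 246, 202 and 190.3 CPM at 2 h and at 242, 200.1 and 200.5 CPM at 4 h. In the KO libraries it stood at 153, 153 and 142 CPM at 0 h, at 146, 148 and 148 CPM at 1 h, at 159, 217 and 216 CPM at 2 h and at 246, 299 and 325 CPM at 4 h. The KO libraries at 4 h lay above all other libraries of either genotype, by a narrow margin for library A, which was close to the highest WT library at 2 h. At 4 h Fcgr3 rose by 0.96 ± 0.15 on the log2 scale in KO (adjusted p = 2.11e-06), and by 0.72 with KO libraries B and C at 4 h left out (adjusted p = 0.00891). In WT the change at 4 h was 0.24 ± 0.15 (adjusted p = 0.289). At 2 h the log2 change was 0.23 ± 0.15 in WT and 0.40 ± 0.15 in KO (adjusted p = 0.383 and 0.0855). It passed in both with scaling by library size only (0.49 and 0.61, adjusted p = 0.0246 and 0.00364), and in KO with DESeq2 (adjusted p = 0.039) and without KO library A at 2 h (adjusted p = 0.0218). Fcgr3 is also made by macrophages. The summed level of the 18 monocyte and macrophage markers in KO went from 2464 CPM at 0 h to 1544 CPM at 4 h while Fcgr3 went from 149 ± 6.16 to 290.0 ± 39.9 CPM, and the part of these cells in the rise was not tested.

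Fcgr2b encodes the inhibitory IgG receptor. Its level in WT was 103 ± 3.47 CPM at 0 h, 79.6 ± 5.47 CPM at 1 h, 70.5 ± 18.9 CPM at 2 h and 96.1 ± 18.1 CPM at 4 h (SD, n = 3). In KO it was 96.3 ± 14.3 CPM at 0 h, 76.3 ± 5.92 CPM at 1 h, 72.9 ± 9.98 CPM at 2 h and 79.1 ± 14.6 CPM at 4 h. The lowest mean was at 2 h in both genotypes. The log2 change at 2 h was -0.55 ± 0.20 in WT and -0.40 ± 0.20 in KO, and neither passed (adjusted p = 0.0681 and 0.231), although DESeq2 called the change in WT (adjusted p = 0.0369), as edgeR did without WT library A at 2 h (-0.77, adjusted p = 0.0173).

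Counted over the chains, 1 of 5 was called at 1 h in each genotype, beside 2.33% of all tested genes in WT and 2.74% in KO. At 2 h 2 of 5 were called in WT, beside 10% of all genes, and 3 of 5 in KO, beside 9.89%. At 4 h 2 of 5 were called in WT, beside 16.7%, and 3 of 5 in KO, beside 18.1%. From 2 to 4 h 3 of 5 were called in WT, where Ms4a2 rose and Fcer1a and Fcer1g fell, beside 5.06% of all genes. In KO 3 of 5 were called over that interval, where Ms4a2 and Fcgr3 rose and Fcer1a fell, beside 6.39%. The calls of Fcgr3 (0.56 ± 0.15, adjusted p = 0.0127) and Fcer1a (-0.62 ± 0.18, adjusted p = 0.0248) from 2 to 4 h in KO were lost when KO libraries B and C at 4 h were left out (adjusted p = 0.692 and 0.162). The call of Fcer1g from 2 to 4 h in WT (-0.35 ± 0.09, adjusted p = 0.00857) was lost without WT library C at 2 h (adjusted p = 0.0966). Scaling by library size only moved the median of all genes by 0.25 at 2 h and 0.32 at 4 h in WT and by 0.21 and 0.37 in KO, and raised the share of calls that were higher from 40.4% to 71% at 4 h in WT and from 41.3% to 72.5% in KO. Under that scaling Fcer1a and Ms4a2 kept their falls at 2 h, Fcer1a kept its fall at 4 h, Fcgr3 passed as higher at 2 and 4 h and Ms4a2 at 4 h in both genotypes, and Fcer1g lost its calls, with a change of -0.06 at 2 h in KO (adjusted p = 0.76). From 2 to 4 h it left 2 of 5 chains called in each genotype, where the change of Fcer1g in WT was -0.28 (adjusted p = 0.0576) and that of Fcer1a in KO -0.46 (adjusted p = 0.153).

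**Figure D2:**
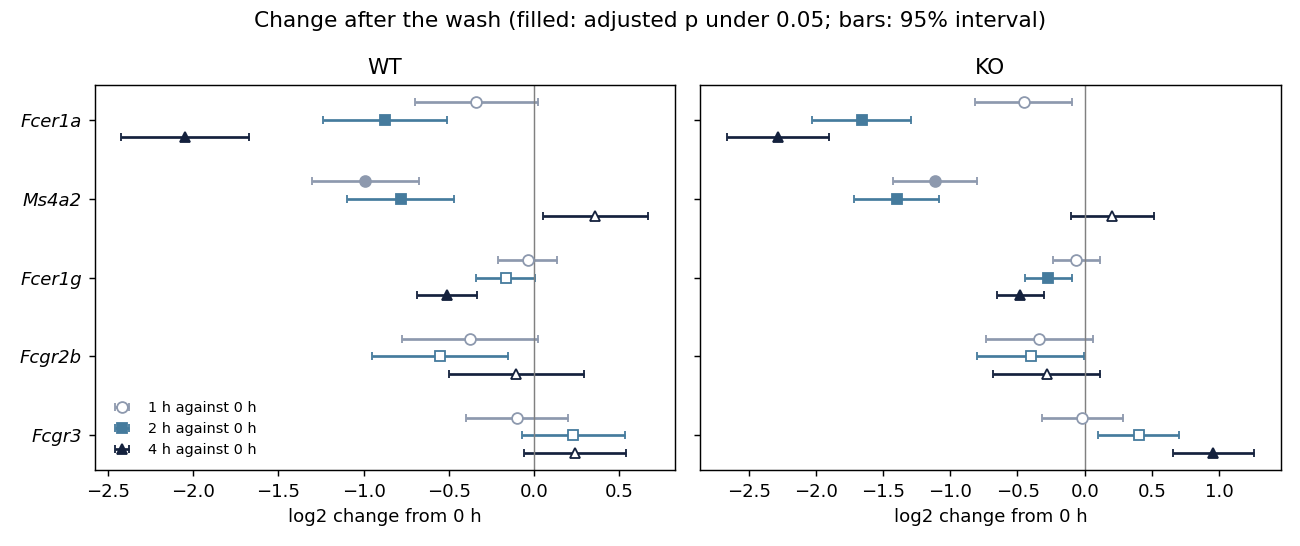
Log2 change from 0 h (horizontal axis) of each chain in WT (left) and KO (right) at 1 h (circles), 2 h (squares) and 4 h (triangles), with 95% intervals from edgeR; filled symbols passed the test. Fcer1a moves furthest left at 4 h (-2.05 in WT and -2.28 in KO), Ms4a2 crosses from left to right, and Fcgr3 passes on the right at 4 h in KO.

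The order of the chains by level changed with time. At 0 h Fcer1g led in all 6 libraries, Fcer1a and Ms4a2 came next, and Fcgr3 and Fcgr2b were last in that order. The WT levels of Fcer1a (263 to 391 CPM) and Ms4a2 (284 to 346 CPM) overlapped at 0 h, while in KO those of Fcer1a (366 to 418 CPM) lay above those of Ms4a2 (275 to 330.4 CPM). At 2 h Fcgr3 came next after Fcer1g in all 6 libraries. At 4 h Ms4a2 came after Fcer1g and Fcgr3 after Ms4a2 in all 6, and Fcer1a was the lowest of the chains in 4 of 6, with levels that overlapped those of Fcgr2b.

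Ratios of reads within a library, which do not depend on scaling, showed the same shifts. The ratio of Ms4a2 to Fcer1a in WT was 0.885 to 1.08 at 0 h, 0.555 to 0.746 at 1 h, 0.954 to 1.16 at 2 h and 4.17 to 6.54 at 4 h. In KO it was 0.745 to 0.891, 0.345 to 0.713, 0.681 to 1.39 and 3.73 to 5.44 at the same times. At 4 h beta chain tags thus outnumbered alpha chain tags in all 6 libraries. The ratio of Fcer1g to Fcer1a went from 7.62 to 10.6 at 0 h to 24.4 to 28.8 at 4 h in WT, and from 7.3 to 7.83 to 22.5 to 30.3 in KO. The ratio of the inhibitory Fcgr2b to the activating Fcgr3 was 0.508 to 0.626 at 0 h, 0.282 to 0.374 at 2 h and 0.416 to 0.483 at 4 h in WT. In KO it was 0.587 to 0.737, 0.315 to 0.419 and 0.193 to 0.369 at these times, so that at 4 h the KO libraries lay below the WT libraries.

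**Figure D3:**
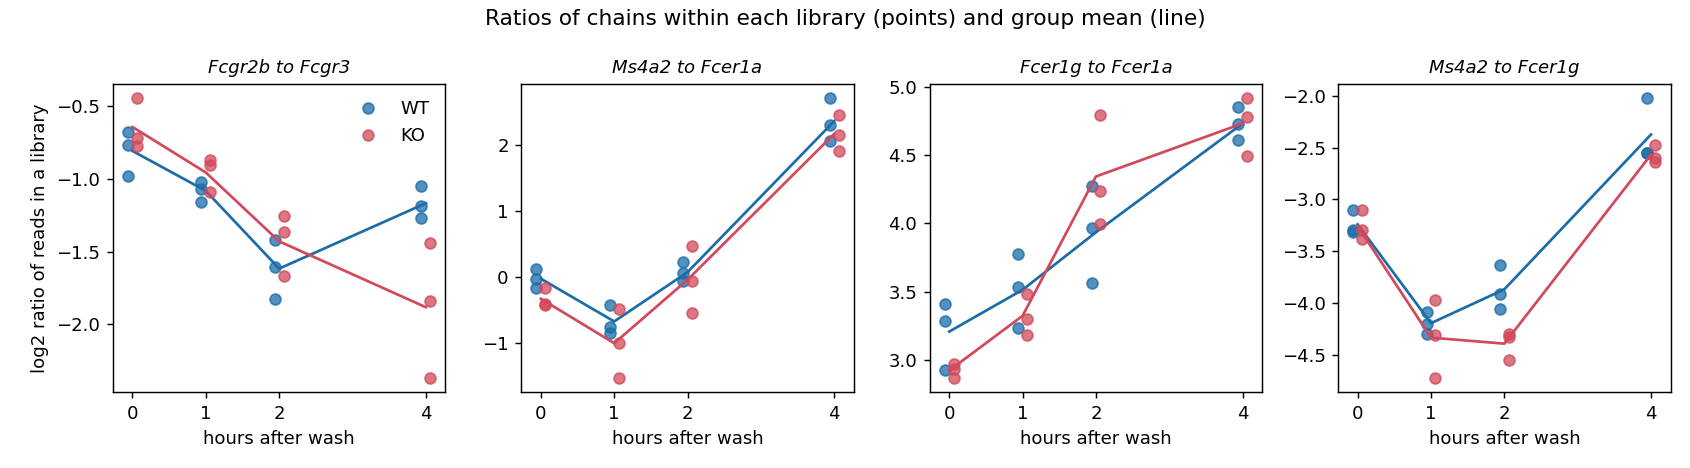
Log2 ratio of reads of 2 chains in the same library (vertical axis) against hours after the wash, with 1 point for each of the 24 libraries and a line through group means (WT blue, KO red). Ms4a2 to Fcer1a lies near 0 at 0 h and at a mean of 2.36 in WT and 2.16 in KO at 4 h, and Fcgr2b to Fcgr3 separates the genotypes at 4 h.

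WT and KO were compared to ask whether loss of tristetraprolin changed the chains. At 2 h Ms4a2 was lower in KO by a log2 difference of -0.64 ± 0.16 (adjusted p = 0.0326), with 101 to 124 CPM in KO and 147 to 209.7 CPM in WT. This was the only chain called in a comparison of the genotypes at a single time, 1 of 5 beside 0.518% of all genes. The call did not hold with only the 2 groups fitted (adjusted p = 0.213), nor without WT library A (0.314), WT library C (0.0797) or KO library C (0.236) at 2 h, all adjusted p. Averaged over the 4 times, Ms4a2 differed by -0.25 ± 0.08 (adjusted p = 0.0591), and 0 of 5 chains were called beside 3.43% of all genes. Of the chains 1 had an unadjusted p under 0.05, and DESeq2 called 0, beside 728 of 12936 genes. The share of all genes with an unadjusted p under 0.05 was not counted, here or below, so these counts have no reference.

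At 0 h and at 1 h 0 of 5 chains were called by edgeR or DESeq2, beside 0.526% and 0.502% of all genes in edgeR, and 0 had an unadjusted p under 0.05. At 4 h 0 of 5 were called by edgeR, beside 1.82% of all genes, with Fcgr3 at an unadjusted p under 0.05 and called by DESeq2. Over all 12936 genes DESeq2 called 489 at 4 h. Fcgr3 was higher in KO at 4 h by 0.44 ± 0.15 (adjusted p = 0.155 in edgeR and 0.0279 in DESeq2). The macrophage markers stood at 1377 to 1754 CPM in KO and 713 to 792 CPM in WT at 4 h, and their part in this difference was not tested. The markers stood at 2424 to 2497 CPM in KO and 1143 to 1183 CPM in WT at 0 h, and at 2211 to 2463 CPM and 907 to 1063 CPM at 1 h. At 0 h the KO libraries lay below the WT libraries in Fcgr3, at 142 to 153 against 171 to 198 CPM. At 1 h they did so by a narrow margin, at 146.2 to 148.3 against 149 to 187.7 CPM. The log2 differences of Fcgr3 were -0.28 ± 0.15 at 0 h and -0.20 ± 0.15 at 1 h (adjusted p = 0.736 and 0.865 in edgeR), without a call. The part of the macrophage markers at these times was not tested either. Fcer1a differed by 0.26 (95% interval -0.10 to 0.62) at 0 h, by -0.52 (-0.89 to -0.16) at 2 h and by 0.03 (-0.34 to 0.39) at 4 h. Of these the difference at 2 h had the smallest adjusted p, 0.316, and it passed without WT library B at 2 h (-0.71, adjusted p = 0.0317). Fcer1g differed by -0.01 (-0.18 to 0.17) at 0 h, by -0.11 (-0.29 to 0.06) at 2 h and by 0.03 (-0.15 to 0.20) at 4 h. Fcgr2b had wider intervals, from -0.50 to 0.30 at 0 h and from -0.68 to 0.12 at 4 h.

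**Figure D4:**
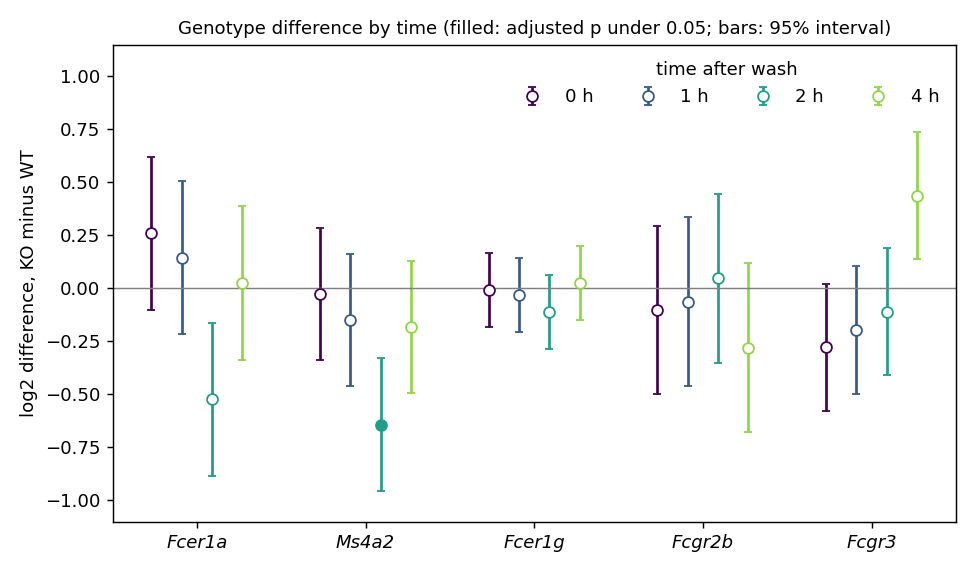
Log2 difference between KO and WT (vertical axis) of each chain at 0, 1, 2 and 4 h (colours), with 95% intervals from edgeR; filled symbols passed the test. Ms4a2 at 2 h (-0.64) is the filled symbol, and Fcgr3 goes from -0.28 at 0 h to 0.44 at 4 h.

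Whether the genotypes differed in their change from 0 h was tested as the difference of the changes. No chain passed in edgeR, with 0 of 5 called beside 0.0618% of all genes for the change to 1 h, 0.0773% for that to 2 h and 0.193% for that to 4 h. At an unadjusted p under 0.05 there were 0, 2 and 1 chains in these comparisons. DESeq2 called 0, 0 and 1, beside 90, 90 and 184 of 12936 genes. The difference of the changes to 2 h was -0.78 ± 0.25 for Fcer1a and -0.62 ± 0.22 for Ms4a2 (adjusted p = 0.56 and 0.63), and without WT library B at 2 h it passed for Fcer1a (-0.97, adjusted p = 0.0466). For Fcgr3 the difference of the changes to 4 h was 0.72 ± 0.21 (adjusted p = 0.218 in edgeR and 0.0228 in DESeq2). It was 0.84 without KO library A at 4 h (adjusted p = 0.0381) and 0.47 without KO libraries B and C (adjusted p = 0.818).

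The 4 ratios within libraries were compared between genotypes with a 2-sided exact permutation test over 160000 assignments within times, adjusted over the 4. Ms4a2 to Fcer1g was lower in KO by a log2 difference of -0.22 (exact p = 0.0238, adjusted p = 0.0953), and Ms4a2 to Fcer1a by -0.24 (exact p = 0.069, adjusted p = 0.138). Fcgr2b to Fcgr3 differed by -0.06 (exact p = 0.647, adjusted p = 0.862) and Fcer1g to Fcer1a by -0.02 (exact p = 0.888, adjusted p = 0.888), and both changed sign when libraries were left out (0.0516 and 0.0354 at most). At 4 h alone Fcgr2b to Fcgr3 differed by -0.72 with an exact p of 0.1, the smallest that 3 libraries against 3 can give.

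Beyond the chains, 4 lists of genes of the same pathway were counted. Over all genes edgeR called 0.526%, 0.502%, 0.518% and 1.82% between the genotypes at 0, 1, 2 and 4 h, and 3.43% averaged over the times. The proximal signalling list holds 31 genes that carry the signal from the IgE receptor, and 0 were called between the genotypes by edgeR at any of the 4 times. At an unadjusted p under 0.05 there were 3, 6, 4 and 6 at 0, 1, 2 and 4 h, a share not counted over all genes. DESeq2 called 1, 1, 0 and 0, beside 222, 204, 234 and 489 of 12936 genes. Averaged over the times 2 of 31 were lower in KO, beside 3.43% of all genes called. These were Rac2 (-0.25 ± 0.05, adjusted p = 0.0012), a small GTPase, and Itpr2 (-0.33 ± 0.10, adjusted p = 0.0417), a calcium channel of the endoplasmic reticulum. The median log2 difference of this list averaged over the times was -0.124, beside -0.00741 over all genes. At 4 h against 0 h, 7 of 31 were higher and 4 lower in WT, with a median of 0.258 beside 0.0591 over all genes, and 10 were higher and 5 lower in KO, with a median of 0.425 beside 0.0843. Over all genes 16.7% were called in WT (875 higher, 1290 lower) and 18.1% in KO (964 higher, 1372 lower).

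Of the 27 tested inhibitors of Fc receptor signalling, 0 were called between the genotypes by edgeR at 0, 1 and 2 h, beside 0.526%, 0.502% and 0.518% of all genes. At these times 5, 5 and 4 inhibitors had an unadjusted p under 0.05, a share not counted over all genes. DESeq2 called 0, 0 and 1, beside 222, 204 and 234 of 12936 genes. At 4 h, beside 1.82% of all genes called, 2 inhibitors were lower in KO. These were Ptpn6 (-0.71 ± 0.16, adjusted p = 0.00622), which encodes the phosphatase SHP-1, and Pag1 (-0.71 ± 0.18, adjusted p = 0.026), an adaptor that recruits the kinase Csk. Averaged over the times 3 of 27 were called, beside 3.43% of all genes. Pag1 (-0.49 ± 0.09, adjusted p = 0.000257), Ptpn6 (-0.31 ± 0.08, adjusted p = 0.0107) and the adaptor Dok2 (-0.31 ± 0.09, adjusted p = 0.0465) were lower. The list's median at 4 h was -0.234, beside 0 over all genes. At 4 h against 0 h 9 inhibitors were higher and 5 lower in WT, beside 16.7% of all genes called, and 6 were higher and 5 lower in KO, beside 18.1%.

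The last list named here held other receptors that use the gamma chain or a like adaptor, and adaptors. A place on it does not mean that a gene pairs with Fcer1g. Of its 20 tested genes, 2, 2, 3 and 2 were called at 0, 1, 2 and 4 h, all higher in KO. Over all genes 0.526%, 0.502%, 0.518% and 1.82% were called. Clec4n and Clec7a were higher in KO at all 4 times. Clec4n, which encodes the fungal sugar receptor Dectin-2 and signals through Fcer1g, differed by 1.00 ± 0.25, 1.59 ± 0.25, 1.16 ± 0.25 and 1.03 ± 0.25 at 0, 1, 2 and 4 h (adjusted p = 0.0386, 4.48e-05, 0.00808 and 0.0134). Clec7a, the beta-glucan receptor Dectin-1, differed by 1.03 to 1.12. Cd300c2 was higher at 2 h (2.77 ± 0.61, adjusted p = 0.0134). Averaged over the times 7 of 20 were called, beside 3.43% of all genes. The 5 higher were Clec4n, Clec7a, Cd300c2, Cd300ld (1.48 ± 0.38) and Trem2 (1.77 ± 0.33). Csf2rb2 (-0.21 ± 0.06) and Cd200r4 (-0.24 ± 0.07) were lower. The list's median was -0.0487. The summed macrophage markers given above were also higher in KO at every time. Their part in the differences of these genes was not tested. A separate list held 13 other Fc receptors, of which 9 were in the table and 8 were tested. Of these 0 were called by edgeR or DESeq2 between the genotypes at any single time. At an unadjusted p under 0.05 there were 0, 0, 0 and 1 at 0, 1, 2 and 4 h, and their summed level was 7.52 to 17.4 CPM in group means.

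The genes with the most similar course to each chain were sought among 7073 genes with a mean of at least 10 CPM, by Pearson's r of log2 CPM over the 8 group means, which share the libraries. For Fcer1a these were Clk1 (r = 0.996), Lrba (0.994) and Gstp1 (0.992), and for Fcer1g they were Lpin2 (0.995), Tnfrsf23 (0.994) and Pdcd4 (0.993). For Ms4a2 they were Sri (0.986), Mns1 (0.972) and Sft2d2 (0.967), for Fcgr2b Cat (0.971), Vti1a (0.961) and Vps28 (0.960), and for Fcgr3 Pgm1 (0.986), Sae1 (0.968) and Dctn2 (0.964). Among the chains themselves Fcer1a and Fcer1g were the most alike (r = 0.977), and Fcer1a and Fcgr3 were the most opposed (r = -0.849). Fcer1a and Ms4a2, which with Fcer1g make up the IgE receptor, had an r of -0.229. Over the 24 single libraries r was 0.735 to 0.846 for the genes named with Fcer1a and 0.910 to 0.939 for those with Fcer1g. It was 0.603 to 0.810 with Ms4a2, 0.586 to 0.776 with Fcgr2b and 0.643 to 0.832 with Fcgr3. For the 3 pairs of chains it was 0.924, -0.731 and -0.206, in the order given. The r values over group means are given as a description over 8 points.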

How the data were processed

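RNA was alkylated to mark s4U, and 3' tag libraries were made with QuantSeq and read on a NovaSeq, per the labels' protocols. Per the submitters' processing notes, the build was GRCm39 and the tools included STAR 2.7.10a, cutadapt 3.5 and SAMtools, with no roles named. Which gene annotation was used is not given in the sources used here. In the deposited table the unit is expected counts (estimated reads of a gene in a library), without normalization, and 12.8% were not whole. Counts were not whole in 23 of 24 libraries for Fcer1g, 10 for Fcgr3, 8 for Ms4a2, 2 for Fcer1a and 1 for Fcgr2b; how parts of a read were assigned between genes is not given, so reads shared with similar genes are uncertain. Read counts of the chains ranged from 696 to 75508 per library.

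Columns carry letters A to C that the labels do not tie to replicate numbers, so a column stands for 1 library of its group with no number. Another 144 per-sample columns of GRAND-SLAM estimates, by their headers, were not used here, so labelled fractions and half-lives are not reported.

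Counts were rounded, filtered (filterByExpr) and scaled with TMM, and 1 quasi-likelihood fit of 8 group means over 24 libraries was made in edgeR 4.0.16 (R 4.3.3). In simulated counts, where 200 genes were changed between the genotypes at 0 h, it called 41% of changes with a log2 size of 1. At a log2 size of 2 it called 91%, with 4 false calls in all. The changed genes were drawn from those with a mean over 200 reads. These rates are averages over such genes and were not estimated for the chains. A gene without a call may therefore still differ. Ratios used reads plus 0.5. Within groups no library repeated another: the 24 pairs had a chi-square of 30.2 to 78.7 for each degree of freedom. Pairs of libraries from different groups were not checked in this way. The chains, gene lists and markers were chosen with earlier results of these data known. Named genes were the 5 chains, Zfp36, up to 12 genes of each pathway list that passed in a comparison of the genotypes, and the 3 genes most like each chain. Il4 and the single marker genes fall outside this rule and were named after their values were seen. Alternatives were scaling by library size, no filter, DESeq2 1.42.0, a replicate block, only the groups compared, leaving out each library, and leaving out KO libraries B and C at 4 h.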

Additional observations from a re-analysis of the deposited data

How the results depend on the processing

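Of 1080 log2 changes of the 5 chains under the alternatives, 972 kept their direction and their side of the threshold, 27 lost a call, 27 gained one and 54 changed sign. Of the 54, 0 were called in either fit (adjusted p of 0.265 or more). With library size only, the values that changed sign were Fcgr2b KO against WT at 2 h (-0.0124), Fcer1g at 1 and 2 h in WT (0.0454 and 0.0877), Fcgr3 at 1 h in KO (0.0269) and Fcgr2b at 4 h in WT and KO (0.22 and 0.0873). With only the groups compared it was Fcgr3 at 1 h in KO (0.0113). Without KO libraries B and C at 4 h these were Fcer1g KO against WT at 4 h (-0.12), and the difference of the changes to 4 h of Fcer1g (-0.10) and Fcgr2b (0.0133). Leaving out single libraries, KO against WT ranged from -0.0258 to 0.13 for Fcer1a at 4 h, -0.0701 to 0.0297 for Fcer1a averaged over the times, -0.0414 to 0.0148 for Fcer1g at 0 h, -0.0884 to 0.0180 at 1 h and -0.0550 to 0.10 at 4 h. It ranged from -0.0857 to 0.28 for Fcgr2b and -0.18 to 0.0178 for Fcgr3 at 2 h, and from -0.0872 to 0.0567 at 0 h and -0.28 to 0.0222 at 1 h for Ms4a2. The difference of the changes to 1 h ranged from -0.28 to 0.0612 for Fcer1a, -0.0808 to 0.0255 for Fcer1g, -0.0316 to 0.17 for Fcgr2b, -0.0004 to 0.17 for Fcgr3 and -0.26 to 0.0489 for Ms4a2, and that to 4 h from -0.0434 to 0.11 for Fcer1g and -0.24 to 0.0041 for Ms4a2. Fcgr3 ranged from -0.0505 to 0.0008 at 1 h in KO and -0.11 to 0.11 from 2 to 4 h in WT. Of 24 values of the ratios 21 kept their direction and side and 3 changed sign, all without a call: Fcgr2b to Fcgr3 was 0.0516 without KO libraries B and C at 4 h, and leaving out all libraries of 1 letter it ranged from -0.12 to 0.0269 and Fcer1g to Fcer1a from -0.0810 to 0.0354.

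For KO against WT at 2 h the number of chains called was 1, 0 with only the groups compared, and 0 to 2 when single libraries were left out. At 4 h it was 0, 1 with DESeq2, and 0 to 1 when single libraries were left out. Averaged over the times it was 0, 1 (Ms4a2) with library size only, with no filter and without KO libraries B and C at 4 h, and 0 to 1 when single libraries were left out. For the difference of the changes to 2 h it was 0, and 0 to 1 when single libraries were left out. For that to 4 h it was 0, 1 with DESeq2, and 0 to 1 when single libraries were left out. From 2 to 4 h in KO it was 3, 1 with only the groups compared, 1 without KO libraries B and C at 4 h, and 1 to 3 when single libraries were left out. The causes were not tested.

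Over all genes, calls between the genotypes at 0, 1, 2 and 4 h numbered 68, 65, 67 and 236 in edgeR and 222, 204, 234 and 489 in DESeq2. With only the groups compared those at 0, 2 and 4 h numbered 116, 41 and 47, and with no filter those at 0, 1 and 2 h numbered 123, 108 and 127. Calls at 4 h numbered 130 without KO libraries B and C and 137 to 431 without single KO libraries. DESeq2 also gave 728 against 444 averaged over the times, 601 against 302 at 1 h in WT, 656 against 354 at 1 h in KO, and 1071 against 654 from 2 to 4 h in WT. Differences of the changes to 1, 2 and 4 h numbered 8, 10 and 25 in edgeR, 90, 90 and 184 in DESeq2 and 21, 20 and 89 with no filter.

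No common effect of a letter was seen: deviations of the 84 same-letter pairs correlated at -0.125 to 0.0925, and 3 of 24 libraries were closest to their own letter. Whether a letter marks shared animals or cultures cannot be told from these values. With a replicate block the difference of Ms4a2 at 2 h was -0.63 (adjusted p = 0.0296), and the numbers of chains called were the same as without it.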
